A study of Rattus norvegicus with 4 samples.

Results

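The 10 genes described here encode selenoproteins, and they were followed over 4 arrays of RNA from rat macrophages among 16581 named genes. Selenoproteins carry selenocysteine, an amino acid that is inserted at a UGA codon, which elsewhere ends translation, with the help of a stem-loop in the messenger RNA. Many of them are redox enzymes, and several of those below sit in the membrane or the lumen of the endoplasmic reticulum (ER). Selenoprotein P differs from the others in that it is secreted and carries several selenocysteines, by which it delivers selenium to other cells. The genes were Selenop, Selenow, Selenok, Selenos, Selenof, Selenot, Selenom, Selenon, Selenoh and Sephs2. They were chosen by name, and the family was taken up because the Selenop signal on the array of replicate 1 was far below that on the other arrays. That value is therefore given as a description, and nothing is supported with it.

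The samples were 4 biological replicates, as the design text calls them, of NR8383 cells, a single macrophage line established from the lung lavage of a rat and growing partly attached and partly afloat, after 4 h with 1.2 cm2/cm2 of the amino-functionalized carbon nanotubes NRCWE049. All 4 form 1 group, unexposed cultures were not analysed here, and the values cannot show what the nanotubes changed. The arrays lay on 1 slide, so the position on the slide and the replicate cannot be told apart. A gene was called detected where at least 1 of its probes was well above background on 4 of 4 arrays by Agilent's flag. Levels are log2 signals minus the 75th percentile that the array's detected probes reach, and they follow 1 probe between arrays without ranking genes. Signals are given as deposited, before this scaling. Spans, in fold, set the highest array over the lowest on the scaled levels, so they can differ from the ratio of the signals. The cells carried the transcripts of macrophages: all 6 macrophage markers were detected, among them the growth factor receptor gene Csf1r and the lysosomal gene Cd68, and 0 of 6 epithelial and 0 of 4 fibroblast markers were. Of 3 measured lymphocyte markers, 1 was detected, Cd3d, at a level of -4.78 ± 0.14 (SD, n = 4).

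Of the 10 genes, 9 had a probe on the array and 8 were detected. Over all named genes the same rule called 52.5%. Selenon, which encodes an ER protein linked to calcium handling, matched no probe and was not analysed here. Selenom, an ER protein with a thioredoxin-like fold, stayed near background on every array (well above it on none), with processed signals of 13.0, 15.9, 13.0 and 5.56 in replicates 1 to 4. Its single probe therefore gives no usable level.

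The value that drew attention was that of Selenop. The processed signals of replicates 1 to 4 were 50.8, 1261, 1231 and 1339. Replicate 1 stood alone below the other arrays, which lay close together. As levels these were -5.28, -0.65, -1.02 and -0.84, so that replicate 1 was 4.43 log2 units (21.6-fold) below the median of the others (-3.43 log2 units with normexp background correction). No other detected named gene had a lower deviation on that array. Without replicate 1 the level of Selenop was -0.84 ± 0.18 (SD, n = 3), a span of 1.29-fold, where the median SD of detected genes over the same arrays was 0.115.

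**Figure D1:**
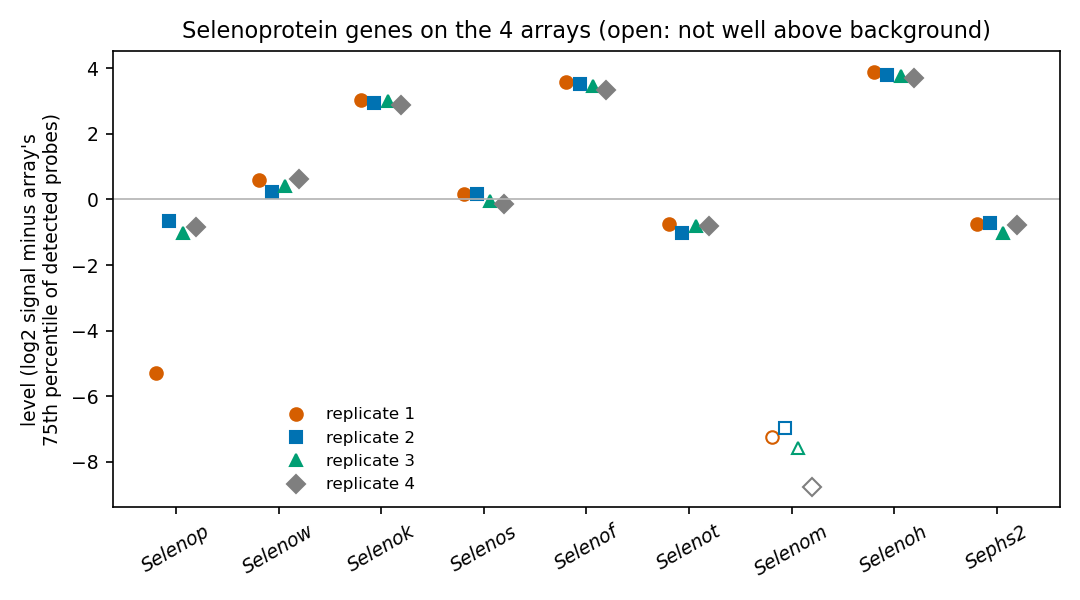
Level of each measured selenoprotein gene on each array (y axis: log2 signal minus the array's 75th percentile of detected probes; x axis: gene), with 1 marker per replicate and open markers where the probe was not well above background. Selenop in replicate 1 lies at -5.28, apart from -0.65, -1.02 and -0.84, while the replicates of the other detected genes lie close together.

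The low value was present before background correction. The median pixel signal of the Selenop spot was 98.5 in replicate 1, against 1361, 1312.5 and 1468 in replicates 2 to 4, over a local background of 37, 41, 46 and 43. The extraction software gave the spot a width of 27.1 in replicate 1 and 27.1, 28.1 and 26.2 in the others (its own units). The undetected Selenom spot had widths of 27.1, 30, 29.1 and 30, so the width does not show whether a spot was intact. The Selenop spot carried neither of the software's outlier flags on any array. With 50.8 ± 6.56 (the software's error of the signal) it still passed as well above background in replicate 1. Selenop has 1 probe with 1 spot, so no second spot of the gene was there to compare.

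The spots printed around Selenop were also low in replicate 1, and on that array only. These spots belong to other probes. Within 5 rows and columns lay 35 spots that were well above background on 4 of 4 arrays and carried no outlier flag. Their median deviation from the median of the other arrays was -0.47 in replicate 1 (quartiles -0.92 and -0.072) and 0.043, 0.022 and 0.016 in replicates 2 to 4. Of all detected spots on the array of replicate 1, 0.275% had surroundings as low or lower. The deviation of Selenop itself, -4.43, was below that of every one of the 35, the lowest of which was at -2.44. Farther off, spots of probes without a gene name came closer to it, at -4.14 (13 rows and 1 column away) and -3.52 (20 rows and 6 columns away). The lowest detected spot of the whole array, at -5.50, was below Selenop. How much of the Selenop value the low surroundings account for was not tested.

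The choice of spots mattered for the size of this value. In replicate 1, 12 of the 110 non-control spots in that window (10.9%) carried an outlier flag, against 0.915% over the whole array and 0 of 110 in each of replicates 2 to 4. A further 5 of 40 spots that were well above background in replicates 2 to 4 were not so in replicate 1 (12.5%, against 1.04% over the array). With both kinds of spot put back, 52 spots had a median deviation of -0.88. Over all 98 unflagged non-control spots, of which 35 were detected on every array, the median was 0.075.

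The nearest detected genes showed the same direction. The spot directly to one side of Selenop belongs to Ess2, a gene of the spliceosome, with signals of 320, 543, 675 and 662 in replicates 1 to 4. On the other side lies Polr3c, which encodes an RNA polymerase III subunit, with 676, 2071, 2238 and 2295. In both, replicate 1 was the lowest, with deviations of -0.76 and -1.48 log2 units from the median of the others. Actr3, of the actin-nucleating Arp2/3 complex, Ptpn11, which encodes the phosphatase SHP2, and the cell polarity gene Llgl2 came next in distance. They deviated by -0.67, -0.78 and -1.82 in replicate 1, less than Selenop in each case.

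**Figure D2:**
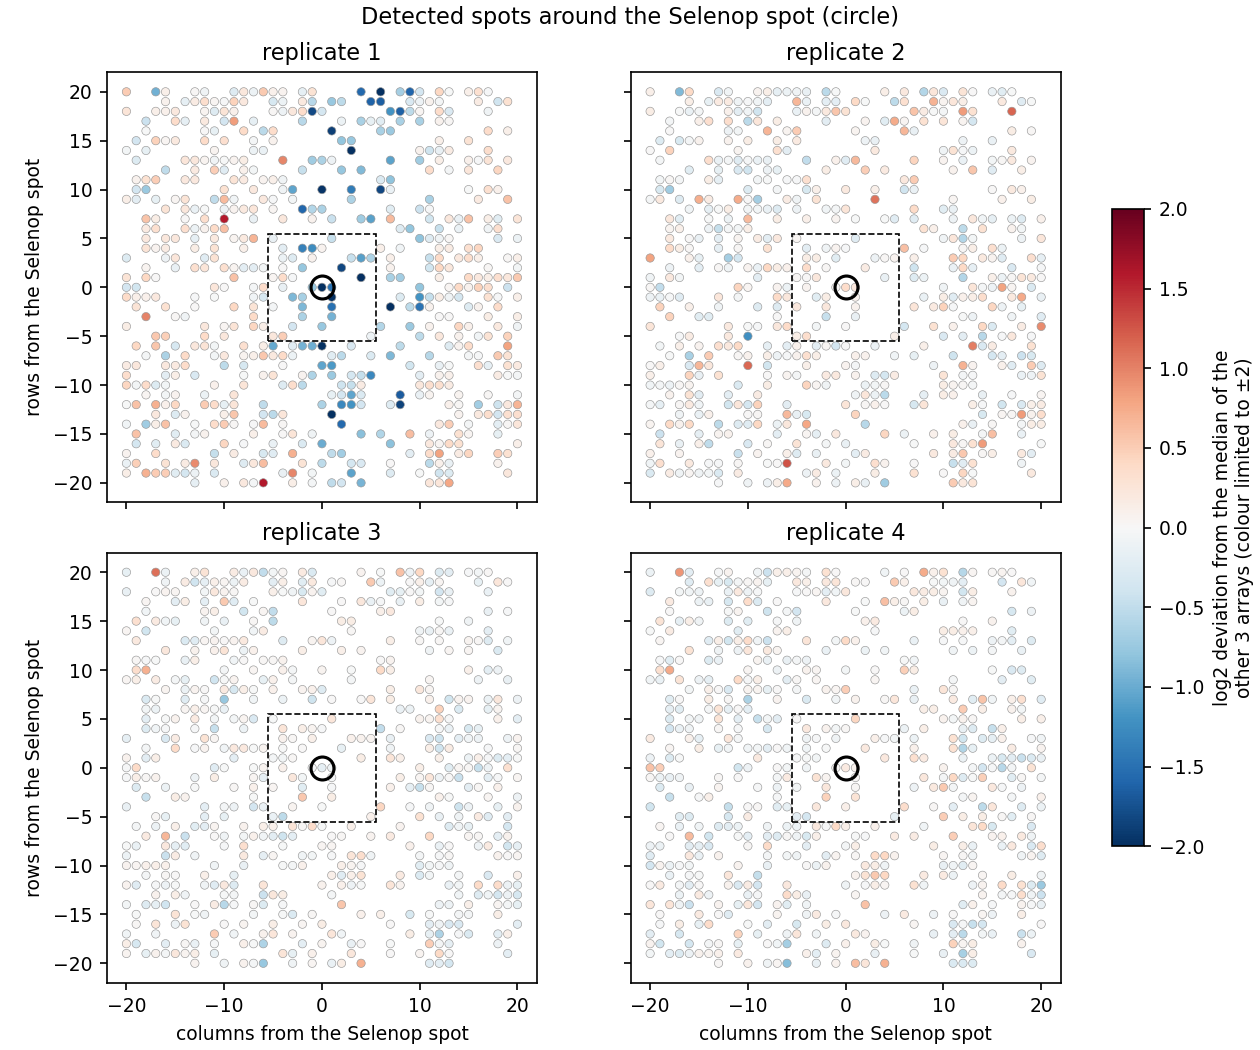
Each point is 1 detected spot at its distance in columns (x axis) and rows (y axis) from the Selenop spot, which is circled, coloured by its log2 deviation from the median of the other 3 arrays, with 1 panel per replicate and a dashed square for the window of 5 rows and columns. In replicate 1 the low spots form a band through the Selenop spot, and the same positions in replicates 2 to 4 show none.

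The low spots were not spread evenly around Selenop but formed a band. Within 20 rows, the median deviation in replicate 1 was -0.55 for spots from 3 columns before to 3 columns after Selenop and -0.59 for spots 4 to 10 columns after it. On either side of these columns it was 0.09 for 10 to 4 columns before and 0.12 for 11 to 20 columns after. Of the spots within the band, 22 of 95 and 18 of 80 were more than 1 log2 unit low, against 1 of 134 and 0 of 179 beside it. The column ranges were set after the map had been seen.

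Along the array the band had ends. In the same columns, 22 of 85 detected spots in rows 21 to 40 were more than 1 log2 unit low in replicate 1, and 21 of 86 in rows 41 to 60. Selenop lies in row 36 and column 50 of a grid of 384 rows and 164 columns. In rows 1 to 20 the count was 1 of 120, and in rows 61 to 80 it was 0 of 127. Over the whole array of replicate 1, 121 of 26895 detected spots (0.450%) were as low, against 17, 17 and 41 in replicates 2 to 4. Rows 21 to 60 of these columns held 43 of the 121, besides Selenop itself.

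**Figure D3:**
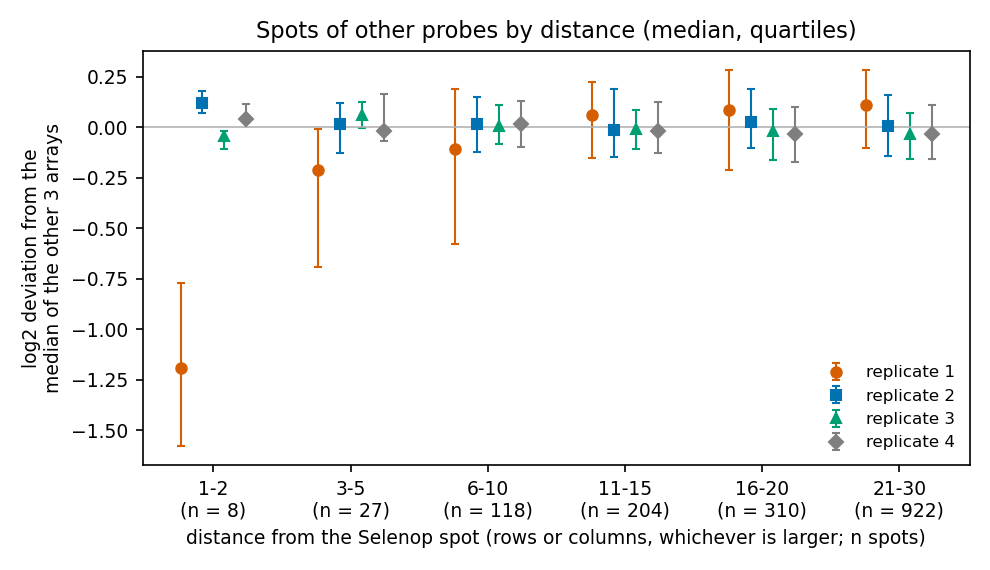
Median and quartiles (bars) of the log2 deviation from the median of the other 3 arrays (y axis) for detected spots of other probes at increasing distance from the Selenop spot (x axis), with 1 marker per replicate. In replicate 1 the median rises from -1.19 for the 8 spots within 2 rows and columns to 0.11 at 21 to 30, while replicates 2 to 4 stay near 0.

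Distance gave the same picture. In replicate 1 the median deviation was -1.19 for the 8 detected spots within 2 rows and columns, -0.21 for the 27 spots at 3 to 5, and -0.11 for the 118 spots at 6 to 10. Beyond 10 rows or columns the medians were above 0.

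No other measured member had a spot with so low a median around it. Over the 27 unflagged spots of the detected ones and 4 arrays, the median deviation around a spot ran from -0.14 to 0.19. Around the undetected Selenom spot the median was -0.016 in replicate 1. Of the 43 spots there, 5 were more than 1 log2 unit low in replicate 1, the lowest at -3.53, and 0 in replicates 2 to 4. Selenot shares row 36 with Selenop but lies 33 columns away, in surroundings with a median deviation of 0.13 in replicate 1. Gpx1, a selenoprotein gene outside the 10, has 2 probes printed 10 times each. Of their spots, 1 lies 3 rows and 1 column from that of Selenop. Its deviations were 0.085, -0.22, 0.12 and -0.085 in replicates 1 to 4, so this spot was not low in replicate 1.

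Among the detected ER members the replicates spanned 1.11-fold (Selenok) to 1.24-fold (Selenos), by the brightest probe of each. Selenok encodes an ER membrane protein that serves calcium flux in immune cells as a partner of the palmitoyltransferase encoded by Zdhhc6. Its brighter probe gave signals of 16097, 15042, 19884 and 17611 and a level of 2.96 ± 0.070 (SD, n = 4). Its second probe, at signals of 1044, 834, 1164 and 914, spanned 1.39-fold, against 1.11-fold for the first. On both probes replicate 1 had the highest level and replicate 4 the lowest.

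Selenos encodes a membrane protein of ER-associated degradation, which hands misfolded proteins to the ATPase Vcp with the derlins. Its signals were 2188, 2216, 2395 and 2163, and its level was 0.03 ± 0.16 (SD, n = 4). Relative to the scaling of each array, replicates 1 and 2 were above replicates 3 and 4. Selenof, whose protein binds the glycoprotein folding sensor UGGT in the ER lumen, had signals of 23318, 22832, 27571 and 24227 and a level of 3.47 ± 0.10. Selenot, an ER oxidoreductase, had signals of 1176, 975, 1418 and 1358 and a level of -0.85 ± 0.12. Its dimmer probe had a level of -3.21 ± 0.084, and the probes disagreed on replicate 2, which was lowest on the brighter one and highest on the dimmer.

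Among the members outside the ER, leaving Selenop aside, Selenow had the widest span. Selenow encodes a small cytosolic thioredoxin-like protein. Its main probe was printed 10 times on each array, and the mean signals were 2982, 2305, 3286 and 3721 in replicates 1 to 4. Levels were 0.60, 0.22, 0.40 and 0.63 (0.46 ± 0.19, SD, n = 4), a span of 1.33-fold. Replicate 2 was the lowest.

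The replicate spots show how far this exceeded the spread within an array. The 10 Selenow spots had SDs of 0.0785, 0.0736, 0.0701 and 0.0769 log2 units within the arrays, below the SD of 0.192 between the array means. In 9 of 9 unflagged spots replicate 2 had the lowest level. A second Selenow probe, printed 2 times, gave signals of 1855, 1504, 2042 and 2154, and replicate 2 was lowest on both of its spots. The spots of 1 array share the same labelled RNA, so they measure the spread of the array and not that of the cultures.

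Selenoh, which encodes a nucleolar redox protein, was also printed 10 times. Its mean signals were 29359, 27316, 33689 and 31056, and its level was 3.78 ± 0.086 (SD, n = 4). In 9 of 9 unflagged spots replicate 1 had the highest level on this scaling, which all spots of an array share. Before scaling, replicate 3 had the highest mean signal. With quantile normalization the Selenoh span was 0.056 log2 units, against 0.206 here. The SD between the array means was 0.0859, and those within the arrays were 0.0841, 0.0343, 0.0481 and 0.0808.

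**Figure D4:**
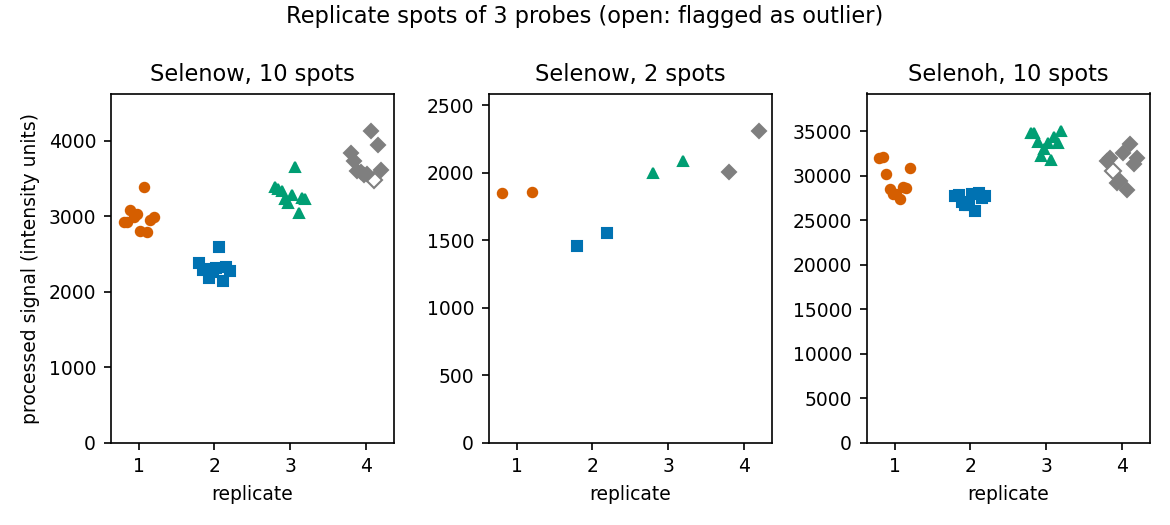
Processed signal (y axis, intensity units from 0) of every replicate spot of both Selenow probes and the Selenoh probe in replicates 1 to 4 (x axis), with open markers for spots flagged as outliers. On both Selenow probes every spot of replicate 2 lies below every spot of the other replicates, while Selenoh spots of different replicates overlap.

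Sephs2 makes selenophosphate, the selenium donor for selenocysteine, and is itself a selenoprotein. Its signals were 1162, 1209, 1230 and 1385, and its level was -0.82 ± 0.14 (SD, n = 4). Replicate 3 was the lowest on the level scale, at -1.02, and the others lay between -0.79 and -0.71.

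Apart from Selenop, the detected members spanned less than 2-fold between replicates. Of the 8 detected members, 1 (Selenop) spanned more than 2-fold, where 2.66% of detected named genes did, and without replicate 1 the count was 0. Since Selenop was picked for its spread, nothing is read from this count. The 7 others spanned 1.11-fold to 1.33-fold, with a median of 1.21-fold, beside a median of 1.26-fold over all detected genes. Their SDs ran from 0.0703 to 0.192 with a median of 0.120, beside 0.151 over all detected genes. Brightness was not matched in that comparison. Of the 400 detected genes nearest in level to each member, 30.25% (Selenok) to 83.75% (Selenow) had a lower SD.

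On the array on which Selenop was low, the 7 others were slightly high. Each of the 7 had a level above its own mean in replicate 1, by a median of 0.11, whereas 53.3% of all detected genes were above their own mean there, with a median of 0.02. In replicate 4 the median of the 7 was -0.08. The 7 were also above their mean in replicate 1 under each of 6 other scalings, background corrections and probe rules, with medians from 0.09 to 0.14. By the brightest probe, Selenop was thus the only detected member that was low in replicate 1. The dimmer Selenot probe was slightly below its own mean there, at -3.25 against -3.21.

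The remaining selenoprotein genes were detected in part. Of 14, 7 were detected on all arrays (50%, beside 52.5% of all named genes). They were the glutathione peroxidase genes Gpx1 and Gpx4, the thioredoxin reductase genes Txnrd1 and Txnrd2, the methionine sulfoxide reductase gene Msrb1, the phospholipid synthesis gene Selenoi, and Selenoo. Gpx2, Gpx3, the deiodinase genes Dio1, Dio2 and Dio3, which convert thyroid hormones, and Selenov were well above background on 0 of 4 arrays, and Txnrd3 was on 1.

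The detected peroxidase genes Gpx1 and Gpx4 spanned 1.29-fold and 1.31-fold, beside a median of 1.26-fold over all detected genes. Their SDs were above those of 72.5% and 74.25% of the 400 detected genes nearest in level. Gpx1, which reduces hydrogen peroxide, had signals of 62083, 48496, 69317 and 64092 and a level of 4.78 ± 0.15 (SD, n = 4). Its second probe, at 4.08 ± 0.20, had the same replicates with the highest and lowest level, 1 and 2. Before scaling, replicate 3 had the highest signal on both probes. Gpx4 protects membranes from lipid peroxides. Its signals were 119503, 113260, 124495 and 111662 and its level was 5.74 ± 0.18. None of the 7 spanned more than 2-fold.

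Txnrd1, which encodes the cytosolic thioredoxin reductase, had the widest span of the 7, at 1.78-fold on the level scale. Its signals were 550, 565, 797 and 1195, with levels of -1.84, -1.81, -1.65 and -1.01, so replicate 4 stood above the others. A second Txnrd1 probe did not show this separation, with levels of -3.43, -3.02, -3.20 and -3.04, and the difference thus rests on 1 probe. Selenoi had levels of -1.96, -1.81, -1.57 and -1.44, with replicates 1 and 2 below 3 and 4. Its second probe was well above background on 1 array only. That probe had levels of -6.87, -7.09, -6.88 and -6.71 and did not set replicate 1 below replicate 3. Selenoo had its highest level in replicate 1, at -1.36 against -1.72, -1.71 and -1.70. Its signals were 767, 599, 760 and 742, so before scaling replicate 1 lay close to replicates 3 and 4. The 2 remaining genes, Msrb1 and Txnrd2, spanned 1.11-fold and 1.20-fold.

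The genes listed around the synthesis, insertion and recovery of selenocysteine, with related factors, are called machinery here. Of these, 10 of 10 were detected, beside 52.5% of all named genes. Secisbp2, which binds the stem-loop, was at -0.65 ± 0.17 (SD, n = 4). The selenocysteine elongation factor gene Eefsec was at 0.66 ± 0.05, and its replicates spanned 1.07-fold. Pstk and Sepsecs encode enzymes that convert the serine on the selenocysteine tRNA in consecutive steps. The level of Pstk was -2.92 ± 0.09. Sepsecs had signals of 302, 297, 578 and 525, with replicates 1 and 2 below replicates 3 and 4, and its levels spanned 1.55-fold. Scly, the selenocysteine lyase gene, which recovers selenium from degraded selenoproteins, ran the other way. Its signals were 344, 314, 275 and 258, and its levels spanned 1.62-fold. Sephs1, the paralogue of Sephs2 that lacks selenocysteine, was also lower in replicates 3 and 4, with levels of -3.95, -3.97, -4.40 and -4.38. The other 4 genes, Trnau1ap, Secisbp2l, Rpl30 and Eif4a3, spanned at most 1.40-fold (Secisbp2l), and none of the 10 passed 2-fold.

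Partners and receptors of the family were measured as well. Of the genes for selenoprotein P receptors, Lrp1 was detected at -2.14 ± 0.14 (SD, n = 4), Lrp2 was well above background on 0 of 4 arrays, and Lrp8 matched no probe. Of 6 measured ER partners, 5 were detected. Vcp had a level of 2.24 ± 0.05 and the palmitoyltransferase gene Zdhhc6 one of -1.20 ± 0.15. Derl1 was at 0.89 ± 0.16, the ubiquitin ligase gene Syvn1 at 0.83 ± 0.13 and its adaptor gene Sel1l at -2.72 ± 0.17, and on these probes replicate 1 was the lowest. A second, dim Syvn1 probe did not have its lowest level in replicate 1. Its levels were -5.16, -5.52, -5.46 and -5.14, of which replicate 2 was the lowest. Uggt1 was detected on 3 of 4 arrays, and Derl2 and Uggt2 matched no probe.

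**Figure D5:**
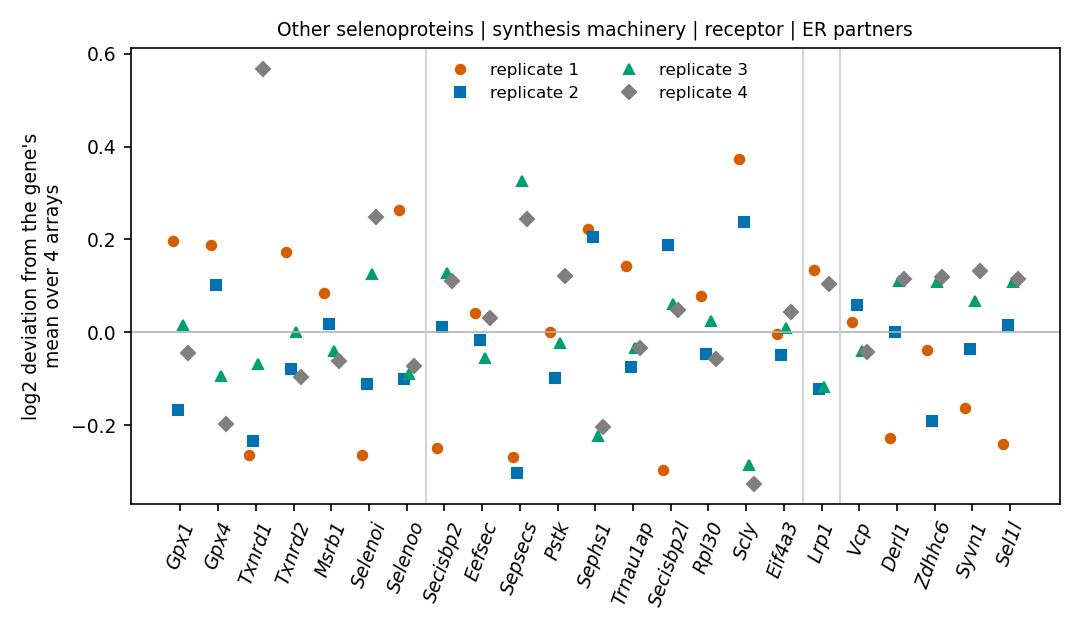
Log2 deviation of each array from the gene's mean over 4 arrays (y axis), with 1 marker per replicate. The detected genes (x axis) are those among other selenoproteins, selenocysteine machinery, receptors and ER partners, separated by vertical lines. Txnrd1 in replicate 4 is the farthest point above 0, and Sepsecs and Scly split replicates 1 and 2 from 3 and 4 in opposite directions.

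The genes most like Selenop were those with the smallest Euclidean distance between profiles over the 4 arrays, each taken as deviations from the gene's own mean. They were Cfap298 (distance 1.51), Sec24a (2.15), Foxe1 (2.17), Zfp868 (2.17) and Ggct (2.20). All 5 were low in replicate 1, which the measure itself selects, with deviations of -2.61 to -1.81 from the median of the others. Cfap298, the most similar, had signals of 123, 923, 946 and 916. The spots of Sec24a, Foxe1 and Ggct lay 23, 18 and 16 rows from that of Selenop and at most 8 columns from it, in rows 59, 54 and 52 of the array. Those of Cfap298 and Zfp868 lay far away, in rows 371 and 366 and columns 23 and 26, close to each other. The median deviation of the detected spots around the 5 was between -0.45 and -0.094 in replicate 1.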

How the data were processed

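The authors hybridised Cy3-labelled RNA to one-colour Agilent rat arrays, per the labels' protocols, and deposited 1 scanner file per array, for which the submitters' processing notes name Feature Extraction 11.0.1.1. The deposited intensity used is the processed signal, which is background-corrected within the array per the file headers. No source used here gives a normalization between arrays. An array has 62976 spots, 4259 of them controls, and none was saturated. The number of arrays limits the precision.

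Controls and spots with an outlier flag were dropped. Where a probe was printed repeatedly, its log2 values were averaged. Each array was scaled to the 75th percentile over the probes detected on all arrays (39.3% of 45598), at signals of 1970, 1980, 2493 and 2402.5. Accessions were matched without versions to the GRCr8 RefSeq gene table, which differs from the build of the headers, so no coordinates are given. This named 21109 probes. A gene's value came from its brightest probe, detected ones first. With 1 group, no comparison was tested; single arrays far from the rest of 4 were marked by Dixon's ratio. Named genes are the members, the fixed pathway lists, and the 5 nearest genes by profile and by position. The calculations were tested on simulated data. Members and lists were chosen with earlier results of these data known. Normexp, an alternative, was run with limma 3.58.1 in R 4.3.3; the rest used Python 3.11.15.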

Additional observations from a re-analysis of the deposited data

Results flagged for a closer look

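Of 32 sets of 4 values examined (the detected members and pathway genes, and the surroundings of the Selenop spot), 3 held 1 replicate far from the rest, measured as its gap to the nearest value over the whole range (Dixon). Chance alone gives about 1.6 such sets, or 1 in 20, but Selenop was chosen for its low value, and its surroundings were examined for that reason, so for both the ratio restates the choice and is no test. Selenop was low in replicate 1 (ratio 0.9205). The spots around Selenop were low in the same replicate (ratio 0.9471), with a median deviation of -0.47 against 0.043, 0.022 and 0.016. Selenoo was high in replicate 1 (ratio 0.9208), at levels of -1.36 against -1.72, -1.71 and -1.70. Its signals were 767, 599, 760 and 742, so before scaling replicate 1 did not stand apart. Selenoo was the only 1 of the 3 sets not examined for its low value, and 1 set is no more than chance gives.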

How the results depend on the processing

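The numbers of detected members (8) and of detected machinery genes (10) were the same under each alternative run, and that of other selenoprotein genes ran from 6 to 9. The members past 2-fold numbered 0 to 1 when 1 replicate was left out (0 without replicate 1) and 2 with no filter on dim probes, which adds Selenom. The Selenop deviation stayed between -4.53 and -3.43, the latter with normexp. The median around its spot was -0.76 with flagged spots kept, -0.78 within 3 and -0.21 within 10 rows and columns, and 0.075 over all 98 non-control spots, of which 35 were detected on every array. Over spots detected in replicates 2 to 4 it was -0.65, and -0.88 with flagged spots kept as well. These last 2 choices were made after seeing the data. Of 90 recomputed levels of single members, 26 moved by more than their SD, 18 of them where the scale was centred elsewhere (all probes, or the median), as did 13 of 90 spans. Without replicate 1, no value around the Selenop spot can be had. No paired analysis was possible because there is 1 group. What limits the dim genes is signal over background: Selenom and Uggt1 lie near it.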
